A study of Mus musculus with 12 samples.

Results

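Smchd1-deleted mouse embryonic stem (ES) cells were compared between day 5 and day 1 of differentiation towards neuromesodermal progenitors (NMPs), over 14063 tested genes of 25965 in the deposited table. The members are 4 of the 12 RNA-seq libraries of the series, taken by their labels: 2 libraries labelled Smchd1 del/del at day 1 and 2 at day 5, from ES lines 1 and 3. No measured value was used to choose them. The cells are C57BL/6 and labelled male, and each line grew from a single blastocyst in 2i and LIF. Both days carry the same deletion, made by a retrovirus with Cre and a puromycin gene, so transduction and puromycin selection are shared by all 4 libraries. Day 1 cells are described as undifferentiated ES cells, weaned into serum and LIF (the protocol text calls this sampling day 0). Day 5 cells had lost LIF and received Fgf2 and then, after 2 days, a Gsk3 inhibitor, which activates Wnt signalling. Gdf11 was added only after the day 5 sampling. The 4 fl/fl libraries of the same days came from the untransduced, unselected part of the same lines and served as the comparison.

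NMPs are cells of the tail end of the embryo that give rise both to spinal cord and to the mesoderm beside it. They are known for carrying the mesodermal factor T (Brachyury) together with the neural and pluripotency factor Sox2, and for Cdx factors that open the way to trunk Hox genes. Wnt and FGF signals hold this state in the embryo. ES cells on their way there leave naive pluripotency, pass through a primed, epiblast-like state and then switch on caudal genes. Smchd1 is an unusual member of the SMC protein family that helps to keep genes silent on the inactive X chromosome, in imprinted regions and in gene clusters including Hox genes and protocadherins.

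The day 1 libraries held 7.67 and 8.67 M reads (M, mega) in genes (26.4 and 27.8% of the reads that the deposited scale divides by) and the day 5 libraries 4.78 and 3.99 M (15.3 and 14.3%). On the deposited log2 scale the median gene was therefore 0.88 lower at day 5. All changes below are relative to that median gene, and "level" means log2 RPM (reads per M reads) after this rescaling. Replicate libraries correlated across genes with a Spearman coefficient of 0.993 at day 1 and 0.947 at day 5. A library of 1 line is 1 sample, so each group has n = 2. With bulk RNA, fewer cells of a type and less RNA per cell cannot be told apart.

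Smchd1 itself had 197 and 271 reads at day 1 and 102 and 104 at day 5 (line 1 then line 3, the order used throughout). The fl/fl libraries had 1212 and 1495 reads at day 1 and 366 and 919 at day 5. The del/del level did not pass the test between days, at -0.25 ± 0.24 (log2 day 5 minus day 1 ± SE; limma adjusted p = 0.434), while in fl/fl cells it fell by 1.03 ± 0.24 over the same days (limma adjusted p = 0.00647). Compared with fl/fl, the del/del level differed by -2.85 ± 0.24 (log2) at day 1 (adjusted p = 0.00244, limma) and by -2.07 ± 0.24 at day 5, which did not pass the test (adjusted p = 0.0563). Which exons were removed is not given in the labels, so reads from the remaining exons could count here.

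Line 1 went against its label. The Y-linked Eif2s3y had 9, 1064, 5 and 569 reads in the 4 del/del libraries, Ddx3y 10, 843, 4 and 454, and Kdm5d 3, 175, 1 and 123. Line 1 was near 0 at both days and line 3 was not, and the fl/fl libraries split the same way: over the whole series the line 1 libraries had 0 to 21 reads per Y gene checked and the line 3 libraries 21 to 1064. The median of 495 X-linked genes differed between the lines by 0.01 at day 1 and 0.12 at day 5, against -0.01 and -0.03 for autosomal genes. The lines are at both days in equal number, and values for each line are given beside the results.

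Markers of naive ES cells and of NMPs went with the day labels in most cases. Of the naive markers, Esrrb, Zfp42 and Nr5a2 were called lower at day 5, and Prdm14 (28, 21, 2 and 4 reads) was not tested. Klf4 (112, 132, 219 and 101 reads) was called higher, and Tfcp2l1 (427, 342, 247 and 100) did not pass the test. The NMP markers T, Nkx1-2, Cdx1, Cdx2, Cdx4 and Fgf8 were all higher at day 5 at a limma adjusted p under 0.05, as 20.6% of all tested genes were, while Sox2 was lower but still had 419 and 221 reads. Wnt3a, a ligand of the tail bud, had 3, 0, 4 and 8 reads and was too low to be tested. Markers of other cell types were mixed. Some were at or near 0 in all 4 libraries: Prl3d1 of trophoblast had 0 reads, Elf5 at most 4, Afp of yolk sac endoderm at most 6, Nkx2-5 of heart at most 4 and Sox10 of neural crest at most 8. Others were called higher at day 5: Tpbpa of trophoblast had 0, 0, 45 and 76 reads, Tnnt2 of heart muscle 0, 0, 17 and 13, and Cdh5 of endothelium 6, 10, 174 and 32. The endoderm factors Sox17 and Foxa2, also called higher, had 11, 8, 179 and 77 reads and 2, 6, 32 and 11. Tek of endothelium (120, 163, 23 and 6 reads) was called lower. So were the neural factors Sox1 (49, 88, 2 and 4) and Pax6 (189, 202, 25 and 23).

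Between day 1 and day 5, 2895 of 14063 genes (20.6%) were higher and 2651 (18.9%) lower at a limma adjusted p under 0.05, in all 39.4%. These shares are the background for every list count below. On the deposited scale the same test gave 826 higher and 4928 lower. The share of calls that were higher was 52.2% on the relative scale and 14.4% on the deposited one. Changes of at least 4-fold were called in 1049 genes upward and 677 downward, and of at least 16-fold in 283 and 175. All 5546 called genes moved in the same direction in both lines, as did 10964 of all 14063 tested genes. The lines are the replicates of the test, so a call itself favours genes on which they agree. Leaving out 1 library of day 1 reduced the calls to 1979 higher and 1394 lower (without line 1) or 2068 and 1523 (without line 3).

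**Figure D1:**
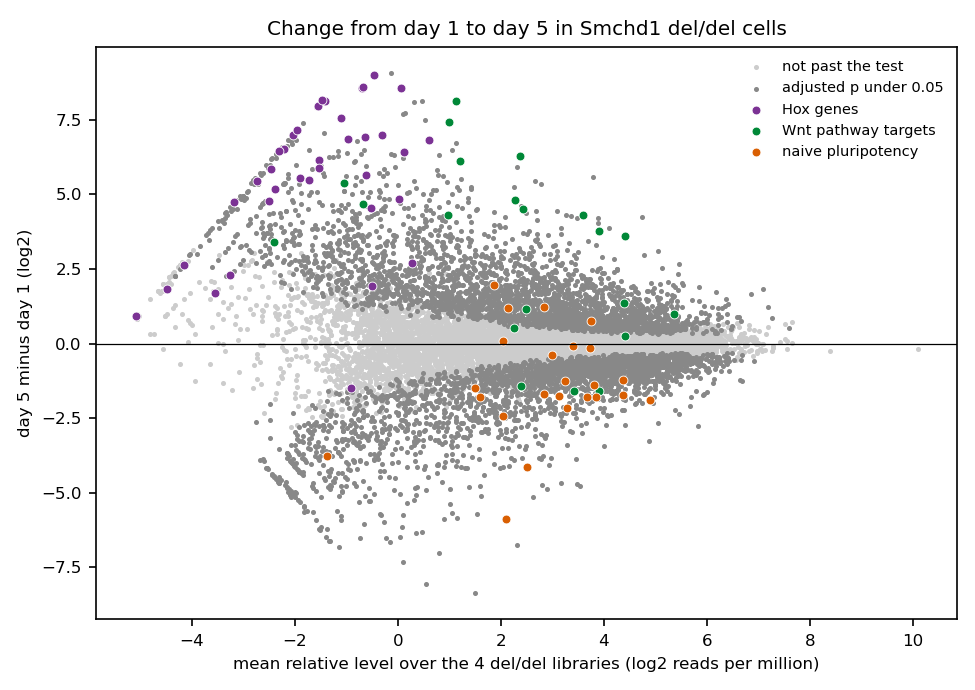
Each point is 1 of the 14063 tested genes; the x axis is its mean level over the 4 del/del libraries (log2 RPM, relative scale) and the y axis its day 5 minus day 1 difference (log2). Hox genes (purple) sit at the upper edge with up to 9.0, Wnt pathway targets (green) mostly lie above 0, and naive pluripotency genes (orange) mostly lie below it.

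The 10 largest increases were Hoxb6, Hoxd9, Hoxa3, Hoxb8, Hoxa9, Sp5, Hoxb3, Msgn1, Hoxc4 and Dkk4. They comprise 7 Hox genes, the Wnt target Sp5, the presomitic mesoderm factor Msgn1 and the secreted Wnt inhibitor Dkk4. Dkk4 had 0 and 0 reads at day 1 and 160 and 85 at day 5, which was at least 153-fold higher when 3 reads over the day 1 group are taken as the floor. The 10 largest decreases were Spna1, Slc27a2, Otx2, Cyp2b23, Insc, Enpp3, Tex19.2, Fbp1, Aass and Pla2g10. Spna1, the erythroid alpha-spectrin gene, had 1910 and 2407 reads at day 1 and 12 and 1 at day 5. Slc27a2, a fatty acid transporter and acyl-CoA ligase, fell from 791 and 1277 reads to 2 and 2, by 8.06 ± 0.43 on the log2 scale (limma adjusted p = 1.13e-06). Enpp3, an ectonucleotidase, had 1999, 2330, 16 and 7 reads. Fbp1, which encodes fructose bisphosphatase, had 163, 167, 0 and 0 reads and was at least 58.6-fold lower.

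Genes of the Wnt pathway that its own signal switches on rose together. Of 21 tested members of a list of Wnt targets and feedback genes, 16 were higher and 2 lower, with a median of 3.79 against 0.00 for all tested genes. Axin2, a negative regulator that is used in many tissues as a readout of Wnt signalling, had 254 and 256 reads at day 1 and 1957 and 1372 at day 5. The days did not overlap, and both lines moved by similar amounts. Its difference was 3.60 ± 0.15, a 12.1-fold rise (limma adjusted p = 3.13e-07). Sp5, a zinc-finger repressor downstream of Wnt, went from 3 and 10 reads to 909 and 750, a difference of 8.15 ± 0.49 (adjusted p = 2.11e-06 by limma).

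The members named next, most of them inhibitors of the pathway, were called higher too. Nkd1, which dampens Dishevelled, had 14, 43, 1005 and 1050 reads and rose by 6.30 ± 0.44. Notum, an enzyme that strips the lipid from Wnt ligands, had 112, 115, 1342 and 1088 reads and rose by 4.32 ± 0.23. Dkk1, a blocker of Wnt co-receptors, had 3, 9, 58 and 86 reads and rose by 4.68 ± 0.52. The ligases Rnf43 and Znrf3, which remove Wnt receptors from the membrane, rose by 5.38 ± 0.84 and 1.17 ± 0.22. Apcdd1, a membrane-bound inhibitor, rose by 4.51 ± 0.41 and the receptor Tnfrsf19 by 3.79 ± 0.31. In the exon annotation, 38.1% of Notum's exon length is shared with another gene.

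Not every listed target followed. The nuclear effector Tcf7 rose by 1.35 ± 0.16 and the cyclin gene Ccnd1 by 0.99 ± 0.13, whereas the R-spondin receptor Lgr4 and the Wnt receptor Fzd7 both fell by 1.60 (SE 0.36 and 0.30). Lef1 (700, 946, 479 and 555 reads), Bambi and Ascl2 did not pass the test, at 0.25, 0.53 and -1.41. Lgr5 rose by 3.40 ± 0.80 from 3 and 2 reads, a call lost without the line 3 library of day 1 (adjusted p = 0.0502 by limma).

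The start regions of the Wnt-list genes were searched for the letters CTTTGAT or CTTTGAA, the core that TCF and LEF factors are known to bind, on both strands. Of 22 listed genes, 15 had an entry in the RefSeq promoter table (build GRCm38.p6), and 4 of these 15 (26.7%) held the letters within 250 bases before a start site, compared with 8.63% of all 27025 genes there. Counted over promoters, the share was 19% of the list's and 7.48% of all 32851. A match is a description of letters and not evidence of binding. The 4 genes, T, Sp5, Tnfrsf19 and Dkk1, were all called higher, and their 250 bases before the start are printed because they show where the letters lie in genes with such large rises. Capitals mark the match, and sequences run 5′ to 3′ on the gene's strand.
T, chr17:8434173-8434422, plus strand: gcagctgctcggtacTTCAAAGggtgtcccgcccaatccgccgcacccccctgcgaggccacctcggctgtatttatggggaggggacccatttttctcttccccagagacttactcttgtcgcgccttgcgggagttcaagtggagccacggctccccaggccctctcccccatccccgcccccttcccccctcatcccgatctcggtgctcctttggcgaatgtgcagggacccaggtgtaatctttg
Sp5, chr2:70474673-70474922, plus strand: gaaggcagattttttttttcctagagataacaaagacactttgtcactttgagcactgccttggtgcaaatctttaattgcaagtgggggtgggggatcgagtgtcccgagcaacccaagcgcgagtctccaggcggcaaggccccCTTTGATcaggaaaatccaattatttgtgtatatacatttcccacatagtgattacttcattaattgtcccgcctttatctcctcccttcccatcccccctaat
Tnfrsf19, chr14:61037988-61038237, minus strand: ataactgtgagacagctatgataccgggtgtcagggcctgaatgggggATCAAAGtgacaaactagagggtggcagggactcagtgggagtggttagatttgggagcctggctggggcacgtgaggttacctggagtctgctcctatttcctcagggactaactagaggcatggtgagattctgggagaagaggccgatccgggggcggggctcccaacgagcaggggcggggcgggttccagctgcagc
Dkk1, chr19:30549497-30549746, minus strand: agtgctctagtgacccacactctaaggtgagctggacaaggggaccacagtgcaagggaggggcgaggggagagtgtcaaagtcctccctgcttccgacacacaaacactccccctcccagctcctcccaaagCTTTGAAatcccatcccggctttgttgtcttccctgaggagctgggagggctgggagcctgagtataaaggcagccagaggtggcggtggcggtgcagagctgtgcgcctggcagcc
The match ended 228 bases before the start in T, 97 in Sp5, 195 in Tnfrsf19 and 110 in Dkk1. T and Tnfrsf19 carry the letters on the other strand.

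Upstream parts of the pathway had a smaller median change. Of 29 tested Wnt receptors, transducers and inhibitors, 11 were higher and 2 lower, with a median of 0.55 that becomes -0.34 on the deposited scale, with 3 higher and 5 lower. The counts were 6 and 1 without the line 1 library of day 1 (median 0.36) and 9 and 1 without that of line 3. The receptor Fzd10 had the smallest p and rose from 114 and 97 reads to 660 and 763 (3.67 ± 0.26). The inhibitor Dkk3 rose by 3.27 ± 0.40, and Dkk2 went from 0 and 1 reads to 99 and 23. Tcf7l1, the TCF factor that represses targets in ES cells, fell by 1.44 ± 0.26. Ctnnb1, which encodes beta-catenin, had 4836, 5235, 4394 and 3525 reads and a difference of 0.56 ± 0.22 that did not pass the test.

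The transcription factors of the NMP and tail bud showed 10 members higher and 4 lower among 16 tested, with a median of 3.92. T had 5 and 8 reads at day 1 and 554 and 608 at day 5. Its level went from -2.73 ± 0.33 to 4.70 ± 0.31 (SD, n = 2), a 173-fold rise with both lines alike (7.43 ± 0.43; limma adjusted p = 1.6e-06). Cdx1 had 9, 15, 495 and 372 reads and rose by 6.12 ± 0.31. Cdx2 had 43, 34, 519 and 642 reads and rose by 4.83 ± 0.28. These Cdx factors are known activators of trunk Hox genes. Cdx4, the third of the family, had 14, 24, 116 and 327 reads and rose by 4.32 ± 0.59, with the larger day 5 value in line 3.

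Nkx1-2, a marker of the caudal epiblast, had 10, 30, 95 and 118 reads and rose by 3.52 ± 0.49. Evx1 (21, 16, 339 and 398 reads) and the zinc-finger gene Sp8 (17, 31, 58 and 94) rose by 5.24 ± 0.41 and 2.60 ± 0.58. The members that fell include Sox2, Sall4 and Zic2, which are also ES cell genes. Sox2 had 1695, 1845, 419 and 221 reads and fell by 1.63 ± 0.21 (limma adjusted p = 0.00021). At day 5 its level per kb of exon was 6.79 RPM, compared with 11.4 for T. Zic2 fell by 2.54 ± 0.25. Mnx1 (0.38) and Gbx2 (-0.09) did not pass the test.

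**Figure D2:**
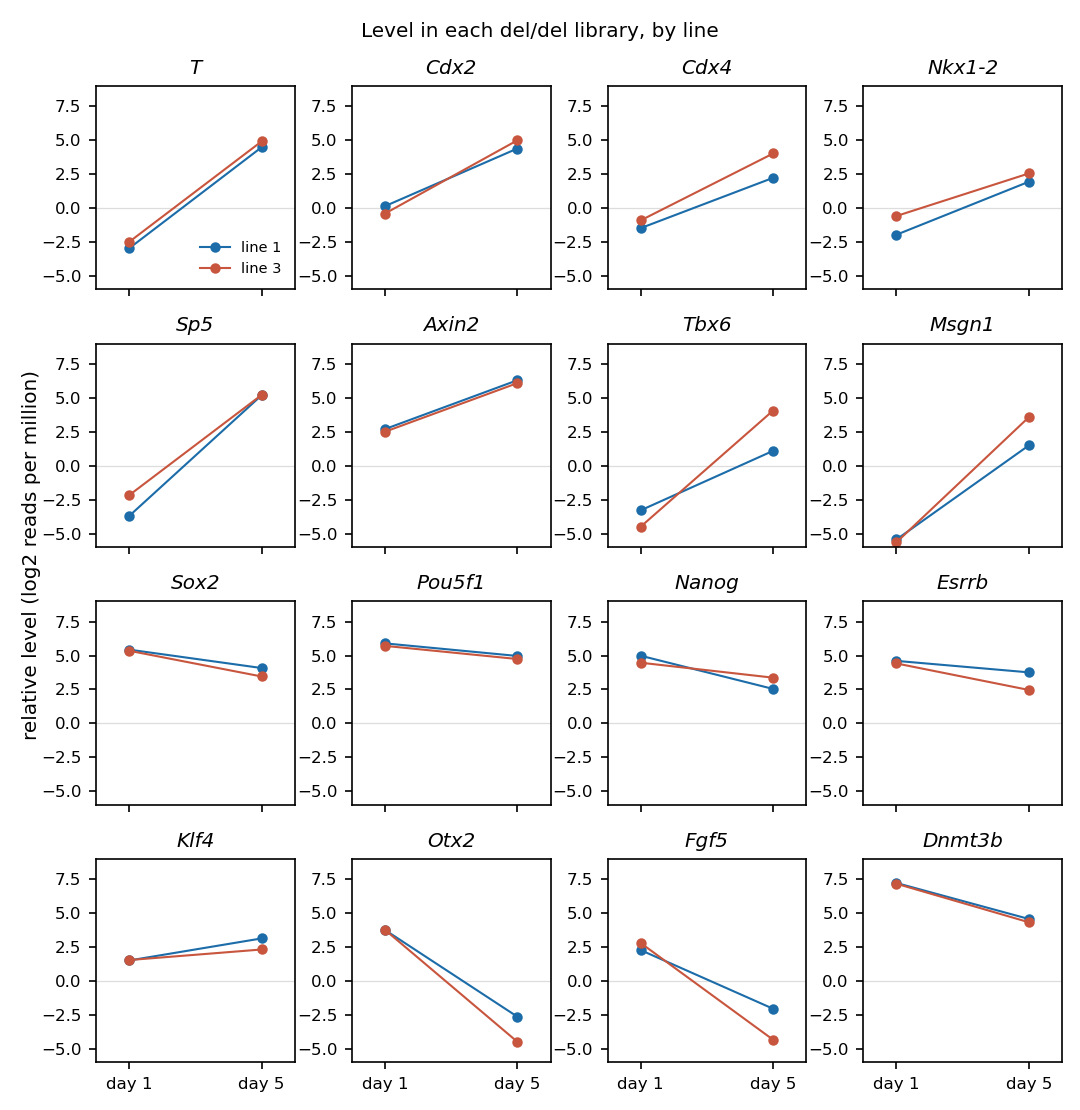
Level of 16 genes in each of the 4 del/del libraries (log2 RPM, relative scale) against day, with a line joining the 2 libraries of ES line 1 (blue) and of line 3 (red). T and Sp5 rise alike in both lines, Tbx6 and Msgn1 end higher in line 3, and Otx2 and Fgf5 drop to between 0 and 6 reads.

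Ligands of the caudal region were mixed, with 6 higher and 4 lower of 12 tested, beside 20.6 and 18.9% of all tested genes. Fgf8, the growth factor of the tail bud, had 3, 10, 64 and 167 reads and rose by 5.15 ± 0.85. Wnt5b and Wnt5a, ligands of the non-canonical branch, rose by 1.53 ± 0.18 and 2.45 ± 0.44. Gdf11, itself a later addition to the medium as a protein, rose as a transcript from 50 and 56 reads to 199 and 256 (3.0 ± 0.30). Bmp4 rose by 2.67 ± 0.31. The ES cell ligands Fgf4 and Nodal fell by 5.88 ± 0.40 and 3.83 ± 0.32, and Wnt8a fell by 1.84 ± 0.44.

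FGF and ERK feedback genes did not move as a block. Of 17, 8 were higher and 5 lower, beside 20.6 and 18.9% of all tested genes. Their median of 0.68 becomes -0.21 on the deposited scale, with 3 higher and 6 lower. The calls became 5 and 3 without line 1 at day 1, and the lower ones 2 without line 3 at day 1 and 3 without line 1 at day 5. Phlda1 (136, 128, 793 and 652 reads), the receptor inhibitor Il17rd and the phosphatase Dusp4 rose by 3.36 ± 0.23, 2.11 ± 0.25 and 1.15 ± 0.16. The ETS factor Etv4 rose by 1.03 ± 0.16, but its relative Etv5 fell by 1.15 ± 0.15. Spry2 and Spry4, feedback inhibitors, fell by 0.80 and 0.64, calls that were lost without line 3 at day 1 (adjusted p up to 0.135 and 0.0926 with 1 library left out, limma). Spry2 also lost its call without line 1 at day 1 or day 5. Dusp6, often used as a readout of ERK activity, was at -0.01.

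Hox genes, the homeobox genes whose paralog number follows position along the body axis, rose in most cases. All 14 tested genes of paralogs 1 to 5 and all 12 of paralogs 6 to 9 were higher, as were 8 of 12 of paralogs 10 to 13. None of the 38 was called lower. The medians were 6.14, 7.09 and 2.47 (6.09, 6.96 and 2.47 with genes at 0 reads set to their bounds). To be tested, a gene needed deposited values over 0 (log2) in 2 or more libraries, so a Hox gene silent at day 1 entered through its later expression. Hoxa4, with 0, 0, 16 and 21 reads, did not pass it.

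Among the anterior genes, Hoxa3 went from 1 and 5 reads to 258 and 796 (8.57 ± 0.73; limma adjusted p = 1.29e-05). Hoxb4 and Hoxc4 had 0 reads in both day 1 libraries, and were at least 80.7-fold and 163-fold higher. Hoxb1 had 5, 3, 62 and 173 reads and Hoxb2 8, 8, 72 and 205. Reads were counted over genes that overlap: 62.9% of the exon length of Hoxd3, 52.9% of Hoxb3, 52.3% of Hoxd4, 35.0% of Hoxa11, 27.3% of Hoxb2, 27.1% of Hoxa3 and 20.4% of Hoxa7 is shared with another annotated gene, so their reads cannot be assigned to 1 gene with certainty.

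Paralogs 6 to 9 had the highest median change. Hoxb6 (chr11:96292476-96301569, mm10) had 2, 0, 258 and 515 reads, a ratio of 725 with a 95% interval of 200 to 5997 for counting error only. Hoxb8 (chr11:96281905-96285325) had 2, 0, 209 and 344 reads and rose by 8.55 ± 0.49, and Hoxd9 (chr2:74697680-74700208) had 2, 0, 224 and 337. Hoxb7 had 4, 9, 258 and 516 reads. Hoxa9 (chr6:52223100-52231089) had 0 and 0 reads at day 1 and 61 and 305 at day 5, which was at least 229-fold higher. Hoxa6 was the lowest of this group, with 0, 0, 5 and 33 reads.

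The posterior genes had the lowest median of the 3 Hox groups. Hoxc10 (0, 0, 20 and 90 reads) was at least 68.8-fold higher, Hoxd10 had 0, 4, 38 and 94 reads, Hoxa10 0, 2, 14 and 48, Hoxd11 4, 9, 39 and 145 and Hoxa11 1, 2, 18 and 24. Hoxc13 rose by 1.92 ± 0.41, from 18 and 13 reads to 34 and 28. Hoxd13, the terminal gene of its cluster, had 38 and 37 reads at day 1 and 3 and 17 at day 5, a difference of -1.48 that did not pass the test (without line 3 at day 5 it was -2.88 and called, adjusted p = 0.002 in limma). Hoxc12 had 0 reads in all 4 libraries. Hoxa13 (2, 2, 3 and 9 reads) was called, but not with ES line as a block (adjusted p = 0.0599, limma) nor without any 1 of 9 libraries. Hoxd12 (1, 0, 2 and 5 reads) lost its call without either day 1 library or line 3 at day 5.

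In the del/del libraries of day 5 the Hox genes also differed between the lines in one direction. Of the 37 tested genes with a read in the 4 libraries (all but Hoxc12), 36 had a higher level in line 3 than in line 1 at day 5. The median of line 3 minus line 1 was 1.62, against -0.03 for autosomal genes. The median change of paralogs 1 to 5 was 5.26 in line 1 and 7.08 in line 3, and of paralogs 6 to 9 it was 6.71 and 7.81. With 1 library of each line at each day this difference has no replicate. The summed level of paralogs 6 to 9 was 0.46 and 0.75 RPM at day 1 and 65.4 and 164.5 at day 5. Of 9 tested Hox cofactors 2 were higher and 1 lower (none lower without either day 1 library), shares near the 20.6 and 18.9% of all tested genes: Meis2 and Meis3 rose by 3.26 ± 0.28 and 3.60 ± 0.45.

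**Figure D3:**
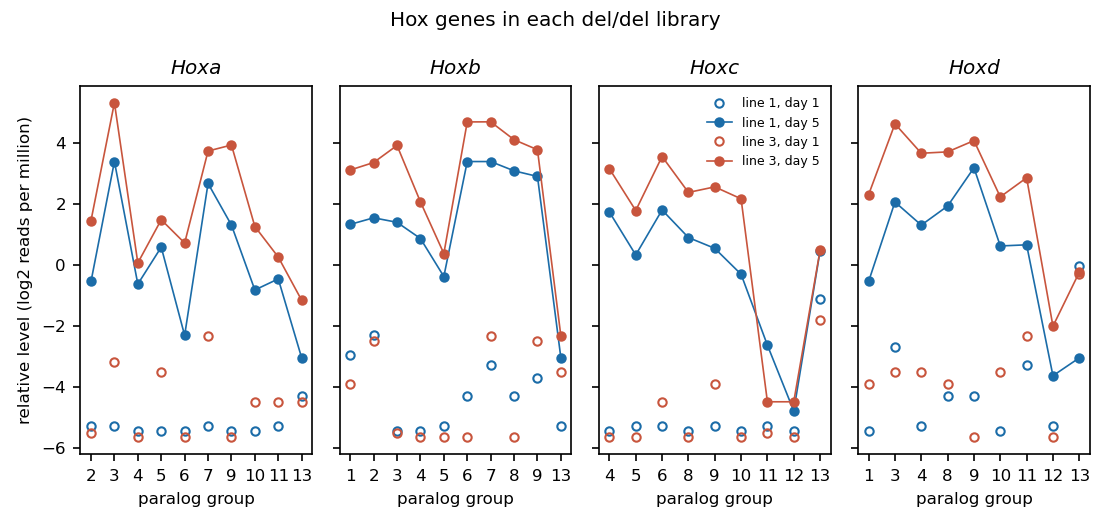
Level of listed Hox genes (log2 RPM, relative scale) by cluster and paralog group in the 4 del/del libraries, open circles for day 1 and joined filled circles for day 5. Open circles below -5 had 0 or 1 reads; at day 5 line 3 (red) lies above line 1 (blue) in every plotted gene with reads but Hoxc11 (Hoxc12 had 0 reads), and paralogs 12 and 13 are among the lowest.

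Genes of pluripotency fell in most cases, with differences between its states. Of 24 tested naive genes, 16 were lower and 4 higher, with a median of -1.58. Without line 1 at day 1 these counts were 11 and 2, and without line 3 at day 5 they were 11 and 4 with a median of -0.85. On the deposited scale 17 were lower and 0 higher. Fgf4, a ligand made by ES cells, had 1365 and 1409 reads at day 1 and 13 and 12 at day 5, and fell by 5.88 ± 0.40 (limma adjusted p = 3.66e-06). Nanog had 1241, 1002, 144 and 208 reads and fell by 1.78 ± 0.38, and Klf2 had 850, 869, 159 and 67 and fell by 2.15 ± 0.34. Pecam1, an adhesion molecule on ES cells, fell by 4.13 ± 0.59.

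Several naive genes kept many reads at day 5. Esrrb had 954, 965, 336 and 111 reads and fell by 1.40 ± 0.37. Zfp42 (Rex1) had 563, 513, 174 and 46 and fell by 1.68 ± 0.53. Both were lower in line 3 than in line 1 at day 5, and both lost their calls without line 1 at day 1 or without line 3 at day 5 (adjusted p up to 0.0748 and 0.205, limma). Zfp42 also lost it without line 3 at day 1. Tfcp2l1 (427, 342, 247 and 100 reads), Dppa5a, Gbx2 and Socs3 did not pass the test. Klf5 and Tbx3, factors shared with later lineages, rose by 1.23 ± 0.24 and 1.96 ± 0.32. Klf4 and Stat3 rose by 1.20 and 0.77, calls lost without line 1 at day 1, and for Klf4 also without line 3 at day 1 or line 1 at day 5. The letters AAGGTCA, which Esrrb is known to bind, were in none of the 250-base start regions of the 15 naive genes in the RefSeq table. Of all 27025 genes there, 4.70% held them. At so low a share 15 genes would hold few matches or none, so 0 does not set the list apart.

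Of the 10 core genes 9 were lower and none higher (median -1.70). Pou5f1, which encodes Oct4, had 2334, 2370, 777 and 540 reads and fell by only 0.95 ± 0.16. L1td1 fell by 3.26 ± 0.22, Sall4 by 1.78 ± 0.14 and Utf1 by 1.87 ± 0.23. Trim28 was at -0.20 and did not pass the test. Lin28a fell by 0.68 with an adjusted p of 0.0477 in limma, which was lost with ES line as a block (adjusted p = 0.0546) and without any 1 of 9 of the 12 libraries.

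Primed genes had the lowest median of the 3 states, with 9 of 15 lower, 4 higher and a median of -2.33 (without line 1 at day 1, 2 were higher). Otx2, the factor of the epiblast and forebrain, had 532 and 618 reads at day 1 and 4 and 0 at day 5 (-7.33 ± 0.69). Fgf5, the classic epiblast marker, had 190, 314, 6 and 1 reads and fell by 5.73 ± 1.21. The factors Pou3f1 and Foxd3 fell by 3.87 ± 0.36 and 6.35 ± 1.02. The gene for the cell adhesion molecule N-cadherin, Cdh2, went the other way, from 77 and 105 reads to 614 and 569 (3.63 ± 0.22). Sox4 rose by 1.13 ± 0.20.

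Transcripts of the rare 2-cell-like state and of the germline, which ES cell cultures contain, were lower as well. Of 8 tested 2-cell-like genes 7 were lower (median -4.46), among them Zscan4d with 322, 284, 8 and 2 reads. The Zscan4 genes are near-identical copies, so their reads are uncertain between members. Of 18 germline genes 13 were lower and none higher (median -1.73). Mael, which acts in piRNA silencing of transposons, had 406, 442, 43 and 9 reads, and the meiotic gene Sycp1 269, 277, 14 and 22.

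Mesoderm genes rose beside the caudal ones. Of 15 tested genes of presomitic and somite mesoderm, 9 were higher and 2 lower (median 4.16), and 1 was lower without either day 1 library or line 1 at day 5. Msgn1, the master factor of presomitic mesoderm, had 0, 0, 70 and 241 reads and was at least 194-fold higher. Tbx6, which turns NMPs to mesoderm, had 4, 2, 53 and 338 reads (6.48 ± 0.97), and the clock gene Hes7 7, 5, 47 and 190 (4.91 ± 0.80). All 3 were higher in line 3 than in line 1 at day 5. Rspo3 rose by 6.10 ± 1.08 and the somite and neural tube factor Pax3 by 5.51 ± 0.60. Dll1 and Dll3, ligands of Notch, did not pass the test, and Tcf15 fell by 2.25 ± 0.38. Of 10 tested primitive streak genes 6 were higher and 2 lower. Mixl1 had 0, 6, 135 and 136 reads (6.78 ± 0.79), while Eomes, with 69, 47, 53 and 25, did not pass the test.

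Of 13 tested genes of the Nodal and Lefty pathway 5 were lower and 2 higher, beside 18.9 and 20.6% of all tested genes. Their median of 0.11 becomes -0.78 on the deposited scale. Nodal, the ligand, was lower, with 1091, 1020, 39 and 40 reads. Its feedback inhibitors Lefty1 and Lefty2 fell by 5.39 ± 0.37 and 3.52 ± 0.78, its co-receptor gene Tdgf1 (Cripto) fell by 4.88 ± 0.44 from 1553 and 1860 reads to 45 and 21, and the nuclear partner Foxh1 fell by 3.10 ± 0.29. These are the 5 lower members. The higher count was 1 without line 1 at day 1, without line 3 at day 1 or without line 3 at day 5. Smad3 rose by 1.35 ± 0.18.

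BMP genes showed 7 of 17 members higher and none lower, with a median of 0.82 that becomes -0.06 on the deposited scale. The ligands Bmp2 (5, 5, 215 and 93 reads) and Bmp7 (65, 61, 491 and 384) rose by 5.73 ± 0.44 and 3.70 ± 0.32, the target Msx2 by 2.56 ± 0.32 and the antagonist Nog by 3.79 ± 0.54. The immediate targets Id1, Id2 and Id3 did not pass the test. Of 11 Hedgehog genes 3 were higher and 3 lower (without line 1 at day 1, 1 was higher), and on the deposited scale 0 were higher and 4 lower. Over all tested genes 20.6% were higher and 18.9% lower. The Hedgehog targets Gli1 (268, 327, 10 and 5 reads; -4.48 ± 0.47) and Ptch1 (576, 760, 82 and 92; -2.02 ± 0.21) were among the lower ones. Gli3 rose by 1.95 ± 0.25. Retinoic acid genes were mixed (7 higher and 2 lower of 17, with 1 lower without either day 1 library or line 3 at day 5), and on the deposited scale 3 were higher and 4 lower. The retinol importer Stra6 and the retinol dehydrogenase Rdh10 rose by 5.07 ± 0.79 and 1.74 ± 0.20, and the receptor gene Rarg fell by 1.70 ± 0.22.

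**Figure D4:**
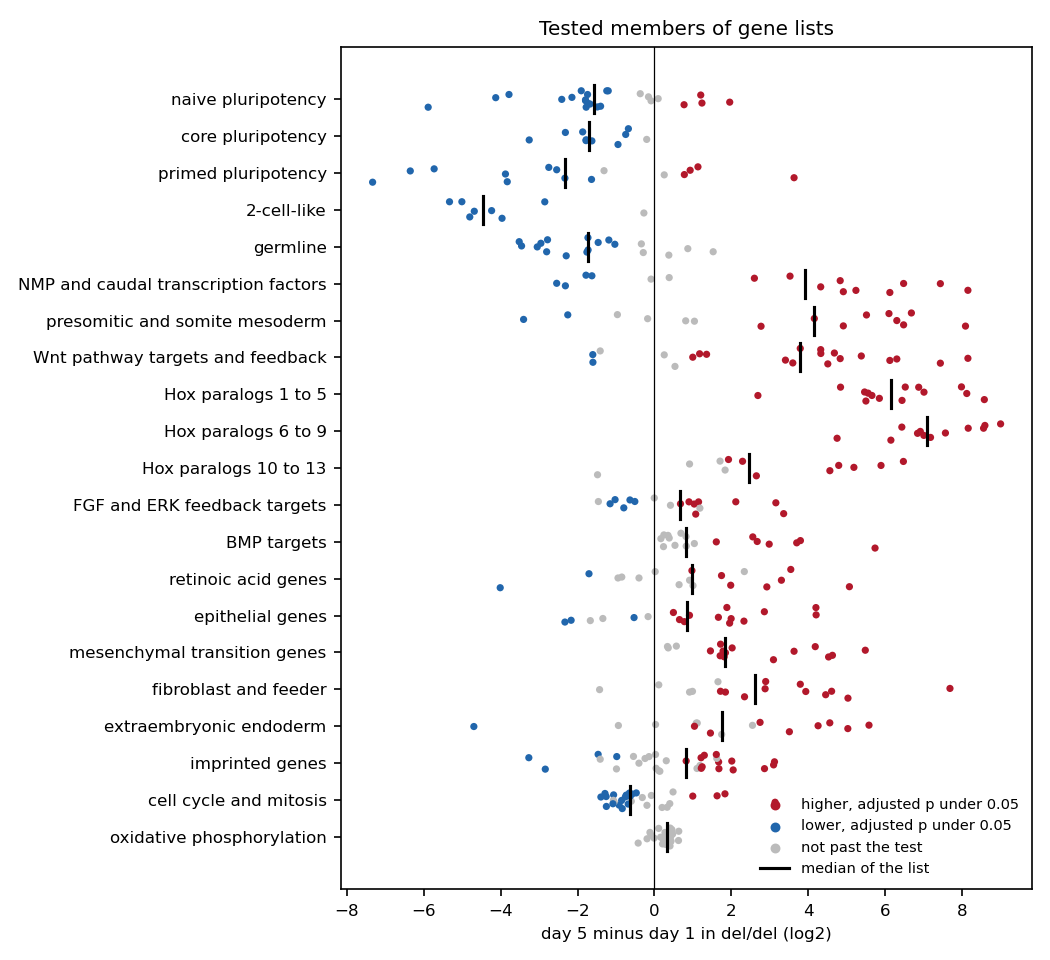
Each point is the day 5 minus day 1 difference (log2, relative scale) of a tested member of 21 gene lists in the del/del cells, red for genes called higher, blue for lower and grey for those that did not pass the limma test; the black bar is the median of the list. Hox paralogs 1 to 9 lie wholly to the right of 0, the 2-cell-like genes wholly to the left, and oxidative phosphorylation genes cluster near 0.

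Genes of other cell types were followed in the same way. Of 13 neural progenitor genes 5 were higher and 4 lower (median -0.18), beside 20.6 and 18.9% of all tested genes. The sign of that median was not stable: it was 0.36 without line 1 at day 5, 0.23 without line 3 at day 5, and 0.22 and 0.39 in line 1 and line 3 alone. Pax6 (189, 202, 25 and 23 reads) and Olig2 (235, 415, 27 and 6) fell by 2.11 ± 0.30 and 3.71 ± 0.58, whereas Nkx6-1, a ventral spinal cord factor, had 4, 2, 173 and 87 reads and rose by 6.35 ± 0.49. Of 15 extraembryonic endoderm genes 8 were higher and 1 lower. The basement membrane collagens Col4a1 (208, 317, 3516 and 1926 reads) and Col4a2 (74, 94, 2839 and 1576) rose by 4.25 ± 0.34 and 5.58 ± 0.28. The summed level of that list was 140.0 and 148.3 RPM at day 1 and 490.4 and 376.8 at day 5. The defining genes Gata4 (12, 23, 86 and 31 reads) and Sox7 (11, 10, 35 and 10) did not pass the test, and Lrp2 fell by 4.70 ± 0.92.

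Of 16 trophoblast genes 8 were higher and none lower. They include Cdx2, shared with the NMP list, the keratins Krt7, Krt8 and Krt18, and Tpbpa of the spongiotrophoblast (0, 0, 45 and 76 reads, at least 75.7-fold higher), while Elf5 and Prl3d1 stayed near 0. Of 16 fibroblast genes 11 were higher and none lower. Acta2, smooth muscle actin, had 2, 5, 389 and 306 reads (7.68 ± 0.49), Col3a1 12, 11, 195 and 204 (5.03 ± 0.71) and Col1a2 20, 18, 212 and 284, while Postn had at most 3 reads and Thy1 did not pass the test. The summed fibroblast level was 83.0 and 88.3 RPM at day 1 and 366.8 and 379.0 at day 5. Whether other cell types contributed to the rises in caudal genes was not tested.

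Endothelial and early blood genes split into 6 higher and 5 lower of 11. The call counts moved with single libraries, to 3 and 2 without line 3 at day 1, 2 and 4 without line 1 at day 5, 6 and 2 without line 3 at day 5 and 6 and 3 without line 1 at day 1. Lmo2 (32, 51, 556 and 1566 reads) and Runx1 (6, 8, 95 and 63) rose by 5.44 ± 0.51 and 4.39 ± 0.33, and Tie1 (115, 139, 0 and 0) was at least 45.1-fold lower. Embryonic globin Hbb-bh1 had 0, 0, 28 and 27 reads and was not tested. Of 8 definitive endoderm genes 4 were higher and 2 lower, which became 2 and 3 on the deposited scale, 2 and 0 without line 1 at day 1, 3 and 1 without line 3 at day 1 and 1 and 1 without line 1 at day 5. Sox17 had 11, 8, 179 and 77 reads (4.56 ± 1.19), a call lost without line 3 at day 1 or line 1 at day 5 (adjusted p up to 0.0661, limma). Cxcr4, also a migration receptor of mesoderm, rose by 5.84 ± 0.56.

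Adhesion genes did not switch from one set to the other. Of 16 mesenchymal transition genes 13 were higher and none lower (median 1.83), with Vim, the filament vimentin, at 927, 977, 2359 and 1781 reads (2.02 ± 0.25) and the repressor gene Snai1 at 71, 78, 92 and 184 (1.72 ± 0.38). Of 18 epithelial genes 12 were higher and 3 lower, with a median of 0.84 that becomes -0.04 on the deposited scale, with 6 higher and 6 lower. Without line 1 at day 1, 7 were higher. Krt19 (108, 109, 1353 and 827 reads) and the desmosome gene Dsp (175, 118, 2136 and 925) both rose by 4.20 (SE 0.26 and 0.35). Cdh1, which encodes E-cadherin, was at -0.17 and did not pass the test, and the epithelial regulators Grhl2 and Esrp1 fell by 2.33 ± 0.50 and 2.17 ± 0.35.

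Of 12 tested DNA methylation genes 5 were lower and 1 higher (9 and 0 on the deposited scale). Tet1, which oxidises methylated cytosine, had 2121, 2308, 115 and 105 reads (-3.42 ± 0.18; limma adjusted p = 1.06e-06). The de novo methylation genes Dnmt3b (5875, 6520, 591 and 406 reads), Dnmt3a and Dnmt3l fell by 2.75 ± 0.22, 1.64 ± 0.12 and 2.24 ± 0.23. Tet3 rose by 1.30 ± 0.20 and was the only one of the 12 methylation genes called higher. Among 28 Polycomb genes 11 were lower and 3 higher (14 and 0 on the deposited scale), beside 18.9 and 20.6% of all tested genes. Phc1 (4045, 4370, 579 and 327 reads) and Jarid2 (3833, 4246, 789 and 482) fell by 2.36 ± 0.16 and 1.80 ± 0.14. The lower count was 4 without line 1 at day 1, 5 without line 3 at day 1 and 6 without line 3 at day 5, and 1 was higher without either day 1 library. Of the 8 tested SMC family genes 2 were lower, beside 18.9% of all tested genes. Smc3 fell by 0.71 ± 0.11 and Smc2 by 0.92 ± 0.24. The Smc2 call was lost without line 1 at day 1 or day 5 (adjusted p up to 0.0733, limma).

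Imprinted genes and clustered protocadherins are known gene sets under Smchd1, and the libraries of both days are labelled del/del. Of 31 tested imprinted genes 13 were higher and 4 lower, beside 20.6 and 18.9% of all tested genes. Their median of 0.82 becomes -0.06 on the deposited scale, with 5 higher and 9 lower. The median was 0.13 without line 3 at day 5 (11 higher and 6 lower) and 0.42 without line 1 at day 1. Igf2, the fetal growth factor, had 503, 453, 1996 and 2359 reads (3.10 ± 0.25), though 64.6% of its exon length is shared with another gene. Airn, a non-coding RNA of the Igf2r region, had 52, 54, 204 and 205 reads (2.86 ± 0.22) and Igf2r itself rose by 0.82 ± 0.18. Snrpn (1867, 1963, 447 and 304 reads) fell by 1.47 ± 0.17 while Ndn, of the same imprinted region, rose by 1.21 ± 0.23. Of 58 listed clustered protocadherins only 3 were tested, and 2 of them, Pcdhga11 and Pcdhb22, were higher, by 1.02 ± 0.12 and 2.21 ± 0.61. For Pcdhga11, 73.6% of the exon length is shared with other genes, most of them of its own cluster, so its reads cannot be assigned to it alone. Pcdhb22 lost its call without line 3 at either day.

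Of 12 tested Lin28 and let-7 genes 3 were higher and 5 lower (2 and 3 without line 1 at day 1). The shares over all tested genes were 20.6 and 18.9%. Hmga2, a let-7 target, had 95, 99, 851 and 1195 reads (4.29 ± 0.23), whereas Mycn fell by 1.99 ± 0.35 and Trim71 by 1.18 ± 0.15. Of 30 cell cycle genes 16 were lower and 4 higher, with a median of -0.64. The lower count depended on single libraries: 6 without line 1 at day 1, 8 without line 3 at day 1 and 7 without line 1 at day 5. Mki67 had 2319, 2639, 521 and 481 reads (-1.39 ± 0.27) and Aurka 1633, 1724, 369 and 362 (-1.29 ± 0.20). The D-type cyclin Ccnd2 rose by 3.13 ± 0.28 and the inhibitor Cdkn1a, a p53 target, by 1.63 ± 0.25.

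None of 26 oxidative phosphorylation genes was called (median 0.32, and -0.57 on the deposited scale), but 10 were called higher without line 1 at day 5, and the median was -0.02 in line 1 and 0.58 in line 3. Of 25 glycolysis and hypoxia genes 5 were higher and 4 lower (5 and 2 without line 1 at day 1, 3 and 2 without line 3 at day 1), near the shares of all tested genes, 20.6 and 18.9%. On the deposited scale 1 was higher and 9 lower. Hk2 fell by 1.26 ± 0.22 and Vegfa rose by 1.63 ± 0.24. Cholesterol synthesis genes had 15 lower and 0 higher of 19 on the deposited scale. On the relative scale 5 were lower and 1 higher, a lower share near the 18.9% of all tested genes. There the lower count was 11 without line 1 at day 5 and 1 without line 1 at day 1, line 3 at day 1 or line 3 at day 5. The 153 genes with at least 800 reads per kb had a median change of 0.27 in del/del cells and -0.12 in fl/fl cells. Depth also changed unlike: reads in genes fell in both del/del lines. In fl/fl they were 6.42 and 7.14 M at day 1 and 4.36 and 7.60 M at day 5. Whether depth made the 2 medians differ was not tested. With the trend of change over read density removed, 2748 genes were called higher and 2506 lower. Of the listed or named genes, 627 kept their side of the threshold under that correction, 14 gained a call and 3 lost it.

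The del/del libraries of the lines differed in more genes at day 5. Then 402 tested genes differed at least 4-fold between line 3 and line 1 (228 higher in line 3 and 174 in line 1), compared with 103 at day 1. Genes named here were chosen after their values were seen. Meox1, a somite factor, had 3 reads in line 1 and 62 in line 3 at day 5, Fgf9 9 and 87, and Lmo1 5 and 55. In the other direction, Pparg had 50 and 3 reads and Slco2a1 194 and 20. Xist, the RNA of the inactive X chromosome, had 44 and 58 reads at day 1 and 171 and 20 at day 5. The fl/fl libraries had 51 and 37 Xist reads at day 1 and 86 and 127 at day 5 (day 5 levels of 1.95 and 1.66). Of the Xist exon length, 12.6% is shared with its antisense gene Tsix and other annotated genes. Whether reads were counted by strand is not given, so they may include Tsix reads. With 1 library of each line at each day these gaps have no test. In the fl/fl libraries of day 5, levels in line 1 and line 3 were -1.89 and -4.33 for Meox1 and -0.31 and -0.52 for Fgf9. They were -0.39 and -1.52 for Lmo1, 1.61 and 1.23 for Pparg and 2.80 and 3.49 for Slco2a1. The large gaps of the del/del libraries were thus not repeated there in the same direction for these genes.

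The fl/fl cells of the same lines were tested in the same fit. There 3134 genes (22.3%) were called higher and 2644 (18.8%) lower, in all 41.1%. In the same direction in both genotypes were 4471 genes, 80.6% of the del/del calls and 77.4% of the fl/fl calls, and 1 gene was called in opposite directions. In fl/fl cells T changed by 8.12, Axin2 by 4.05, Sox2 by -1.59, Otx2 by -5.11 and Nanog by -2.18, all called. The difference between the changes (interaction) was called for 0 of 14063 genes by limma, with 341 at an unadjusted p under 0.05 and a smallest adjusted p of 0.968. The voom fit on reads also called 0, with 440 at an unadjusted p under 0.05. Both counts are below the share of 0.05 that would fall there if no change differed. On simulated reads the interaction test found 31.2% of 4-fold and 84.0% of 8-fold differences, and smaller ones were mostly missed. Every simulated gene and group had the same spread setting, so the shares found in the data may differ. Without line 1 of the del/del cells at day 5 the interaction did call genes. That group then held 1 library, and the spread came from the other groups.

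The interaction's smallest unadjusted p-values belonged to Ets1, Pygo1, Bcl11a, Dok5 and Shisa4, all with an adjusted p of 0.968 in limma. The endothelial and crest factor Ets1 rose by 2.81 in del/del and 4.71 in fl/fl cells, and the transcription factor Bcl11a changed by -5.10 and -2.19. Pygo1, a cofactor of beta-catenin, rose by 4.00 in del/del and was at 1.49 in fl/fl, Shisa4 was at 3.53 and 2.21, and Dok5 was at 0.52 and 4.10. Of the 37 tested Hox genes with reads, 31 had a larger change in del/del than in fl/fl cells, a count not made over all tested genes. Hoxb8 changed by 8.55 and 6.14, Hoxb3 by 8.12 and 5.12, and Hoxa9 by 8.16 and 5.97. At day 5, levels in line 3 were higher with the deletion than without it in 36 of the 37 genes, by a median of 1.73 between 1 library of each. In line 1 they were higher in 17 of 37, with a median of -0.03, and Hoxb6 had a level of 3.38 with the deletion and 3.51 without it. Depth was unlike in the line 3 pair, with 3.99 M reads in genes (14.3%) with the deletion and 7.60 M (24.0%) without it. For the line 1 pair it was 4.78 M (15.3%) and 4.36 M (14.8%). Whether depth contributed to the line 3 difference was not tested. At day 1, 17 of the 37 had 0 reads in at least 1 del/del library, where the level is set by the rescaling. That level was -5.44 and -5.65 in del/del and -5.15 and -5.32 in fl/fl cells, which enlarges a del/del rise from 0 reads. None of the genotype differences in change passed the interaction test. The fl/fl cells also lacked the virus and the selection, so deletion and transduction cannot be told apart.

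**Figure D5:**
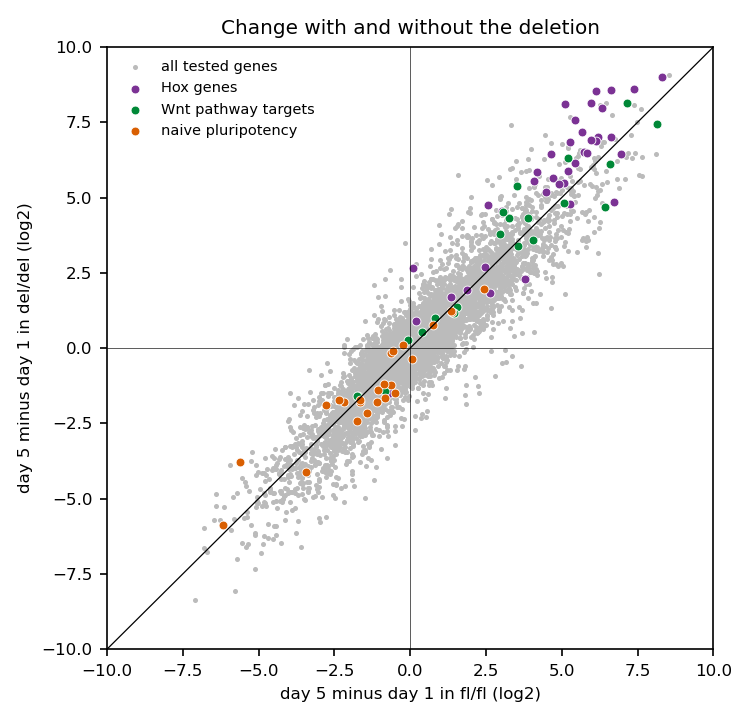
Day 5 minus day 1 difference (log2, relative scale) of each of the 14063 tested genes in fl/fl cells (x axis) and in del/del cells (y axis), with the line of equal change. Most genes lie along the line; Hox genes (purple) lie above it in 32 of 38 cases (Hoxc12, with 0 reads, included), with no gene past the test of the difference.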

How the data were processed

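RNA-seq libraries of 12 samples were used, 2 in each of 6 groups. The values the authors deposited are RPM on a log2 scale, where RPM counts reads for each M reads and the base was settled from the whole-read steps, and the submitters' processing notes name bcl2fastq, TopHat2 2.0.12, edgeR and genome build mm10. Taken out of the log2, each library's deposited values were whole multiples of 1 step for 100% of genes within 0.02 reads, with 0 reads entered as 0.9, and read numbers were recovered from this. Gene reads per library ranged from 1.51 to 8.67 M (mega), which limits the precision of genes with few reads.

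Each library was shifted by the median, over 14053 genes with reads in all 12 libraries, of its log2 difference from the gene means. The 14063 genes whose deposited log2 value exceeded 0 in 2 or more libraries entered the test, run with limma 3.58.1 in R 4.3.3, as 6 group means with a mean-variance trend, and p-values were adjusted by Benjamini-Hochberg over all of them at 0.05. The test of the difference between genotypes was the interaction in the same fit. Exon lengths and overlaps were matched for 90.1% of tested genes.

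Members, gene lists and tests were chosen with earlier results of these data known. The 46 lists hold 765 genes, of which 617 were tested, and counts are over tested members, a few of which are not reported here by name. Named genes are Smchd1, the 10 largest increases and decreases among called genes without overlap and with at least 20 reads in each library of the higher day, the 5 smallest interaction p-values, up to 6 called members of a list by p, members of the pluripotency, NMP, Wnt target, FGF and Hox lists, and markers near 0. Other list members named as examples were chosen after their values were seen. Genes with 0 reads at a day get a bound against 3 reads over that day, and with 1 to 3 reads a ratio with its exact 95% interval. A gene with 0 reads on both days receives a fitted difference near 0.91 from the rescaling alone.

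The replicate number marks the ES line, per the column names, so it pairs samples, and the Y-linked reads split by line in every group. Deviations from the group means of the del/del day 1 and day 5 libraries correlated at 0.0851. Those of the del/del and fl/fl libraries of day 5 correlated at -0.154. Alternatives were other scales and filters, 2 added reads, array weights, voom, a read density correction, ES line as a block and leaving out each library. The fit was tested on simulated data: among 13302 genes, changes of 2-fold were found in 4.08% of cases, those of 4-fold in 83.7% and those of 8-fold in 100%. Only 49 or 50 tested genes were changed at each fold, while 39.4% of genes were called in the data. The simulation also gave every gene and group the same spread setting, whereas real replicates were less alike at day 5 than at day 1. These shares may therefore not carry over to the data.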

Additional observations from a re-analysis of the deposited data

How the results depend on the processing

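The deposited scale gave 826 genes higher and 4928 lower, compared with 2895 and 2651 on the relative scale, since on it the median gene fell by 0.88. Fits on 1 line of the del/del cells, added after the data were seen, gave fewer calls: 2137 higher and 1398 lower in line 1, and 1847 and 1381 in line 3, with fewer samples in each. Leaving out 1 library at a time gave 1979 to 3399 genes higher, 1394 to 3341 lower, and 0 to 294 in the interaction. The lowest counts came without line 1 of the del/del cells at day 1 (1979 and 1394) and the 294 without line 1 at day 5; the cause was not tested. With the ES line as a replicate block, which pairs the samples, 2808 were higher and 2563 lower, 5280 of them calls of the unblocked fit, and the interaction again called 0. Of 646 tested genes in the lists or named by size, 386 were called. Under the block 11 of these lost and 5 gained a call, without line 1 at day 1 91 lost one, and no gene changed direction with a call under any of 25 alternatives. Few reads limit the low genes. Most 2-fold changes were missed in the simulation, where few genes were changed. In the data some smaller changes were called, such as Usp37 at -0.51 ± 0.11.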
